A study of Rattus norvegicus with 34 samples.

Results

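The genes described here encode the proteins of the cytosolic ribosome. They were chosen by symbol: every gene on the array whose annotated symbol begins with Rpl or Rps followed by a digit, together with Rplp0, Rplp1, Rplp2 and Rpsa, and without the 8 genes of the Rps6k kinase family that share the prefix. This gave 67 of the 13337 genes on the array, 43 of the large subunit type of name and 24 of the small subunit type. One of them, Rps19bp1, encodes a protein that binds ribosomal protein S19 and is not itself a ribosomal protein. Of the 67 genes, 60 were expressed by the study's criterion and could be tested among 6760 expressed genes.

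The data come from female Sprague-Dawley rats that received a single intraperitoneal injection of doxorubicin (DOX, 12 mg/kg) or of saline and were sacrificed 48 h later. The left ventricle of the heart and the peripheral blood mononuclear cells (PBMC, the blood fraction that a density gradient enriches for lymphocytes and monocytes) were hybridised to Illumina RatRef-12 BeadChips. In each tissue 8 arrays are labelled saline and 9 are labelled DOX, which makes 34 arrays. All values below are log2 intensities above the median of the not expressed probes of the same array, so that 0 is background and a difference of 1 is a 2-fold difference.

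In the heart the groups are taken as labelled. In PBMC 2 groupings are given, because the labels are not settled. In the study's own supplementary gene list, the PBMC arrays titled saline 1 to 8 and DOX 1 are treated as the DOX rats and those titled DOX 2 to 9 as the controls. The former are called the DOX side here (n = 9) and the latter the control side (n = 8), and results for the groups as labelled follow. The 2 groupings run nearly opposite to each other, and neither is taken as correct here.

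A ribosome has a small subunit, which binds the mRNA and reads its codons, and a large subunit, which joins the amino acids and releases the growing chain through an exit tunnel. Most ribosomal protein mRNAs begin with an uninterrupted run of pyrimidines, the 5' terminal oligopyrimidine (TOP) motif, by which the mTOR pathway and the RNA-binding protein LARP1 control their translation and stability together. In the heart and in blood cells these mRNAs are among the most abundant of all. Ribosomal protein genes also have many processed pseudogenes, and in the RefSeq annotation of the rat genome (GRCr8) 63 of the 67 genes have named pseudogene copies, with a median of 11. An array probe may detect transcripts of such copies, so the signal of a probe is not certain to come from the named gene alone.

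The sequence around an annotated start shows which members have such a run there. RefSeq promoter windows (GRCr8) were at hand for 55 of the 67 genes, and in the 30 bases from 10 before the annotated start to 20 from the start on, 32 of them (58.2%) had a run of at least 8 pyrimidines, against 10.6% of all 27457 genes in the table. The letters CTTTCC were found on the sense strand of this window in 13 of the 55 (23.6%) and in 1.18% of all genes, and on the other strand in 0 of the 55 and in 1.25% of all genes. Windows are shown for the members that fell most in the heart (Rpl6, Rpl10 and Rplp0), for Rps24, which rose there, and for Rpl31, Rps16, Rps2 and Rpl7l1, on which the PBMC results turn. The longest pyrimidine run is in capitals.
Rpl6 (chr12:41011671-41011700, minus strand): TTacatcactagatggcgggtgaaaaggcg
Rpl10 (chrX:157205840-157205869, plus strand): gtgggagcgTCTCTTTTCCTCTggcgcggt
Rplp0 (chr12:46718371-46718400, minus strand): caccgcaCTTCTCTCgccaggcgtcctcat
Rps24 (chr16:96507-96536, plus strand): ggTCCTCTTTTCCTCCTTTacagctcgggc
Rpl31 (chr9:49143101-49143130, plus strand): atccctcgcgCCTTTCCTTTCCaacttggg
Rps16 (chr1:92770648-92770677, plus strand): aaaatcggtcggggtggccccaagCTTTCC
Rps2 (chr10:14251838-14251867, plus strand): TCTTTTTCTTCgggaaaacacgtgagtctg
Rpl7l1 (chr9:21695708-21695737, plus strand): cagatgcattgtgggaagCCTTTaactcgt
Rps24, with a run of 17 pyrimidines, was the gene with the highest log2 fold change in the heart. Rpl6, with a run of only 2 in its window, had the lowest. Both windows lie inside the annotated spans of their genes, not at the outer edge. The span of Rpl6, on the minus strand, ends at 41012756 and that of Rps24 begins at 95429. Among the 48 tested genes with a window, the median log2 fold change in the heart was -2.27 for the 31 with a run of at least 8 and -1.75 for the 17 without, and both groups held genes on either side of 0. A run in this window is a description of an annotated start, which need not be the outermost one, and not of the mRNA that the probe detected.

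Before the results, the arrays themselves need a description. The DOX arrays of the heart held 2826 to 4802 distinct values each and the saline arrays 22196 to 22417, and in PBMC the DOX side held 2804 to 5746 and the control side 22278 to 22419, so a difference in how the values were made cannot be told apart from the groups. In the PBMC the arrays titled saline 6 and DOX 1 stood apart from the other 7 of the DOX side: they correlated with each other at 0.93 over all tested genes and with the other 7 at 0.59 to 0.84. The cardiomyocyte marker list was above background in the heart for 9 of 9 genes and in the PBMC control side for 0 of 9, so these markers bore out the tissue labels of these groups. Between the PBMC sides 0 of the 9 markers differed more than 2-fold (limma, adjusted p under 0.05), with a median log2 fold change of 0.04. Levels of these markers on saline 6 and DOX 1 alone are not given here. The brightest probe of an array was at 6.76 to 8.83, and ribosomal protein genes in PBMC lay near this upper end, with 24 to 41 of the 60 genes within 1 log2 unit of it on the control side arrays. In a bulk sample, fewer cells of a type cannot be told apart from less RNA per cell.

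In the left ventricle, the question was how the ribosomal protein genes respond to DOX. Most were lower after DOX, over a wide range: 41 of 60 fell more than 2-fold, 2 rose more than 2-fold and 17 passed neither way (limma, adjusted p under 0.05). Among all 6760 genes 48.2% fell and 1.36% rose by the same rule, or 49.5% in either direction. The median log2 fold change was -1.91 for the ribosomal protein genes and -0.94 for all genes, and single ribosomal protein genes ran from -4.84 to 2.01. For 43 of the 60 every DOX array was below every saline array, against 63.4% of all genes, and for 2 every DOX array was above, against 1.82%.

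**Figure D1:**
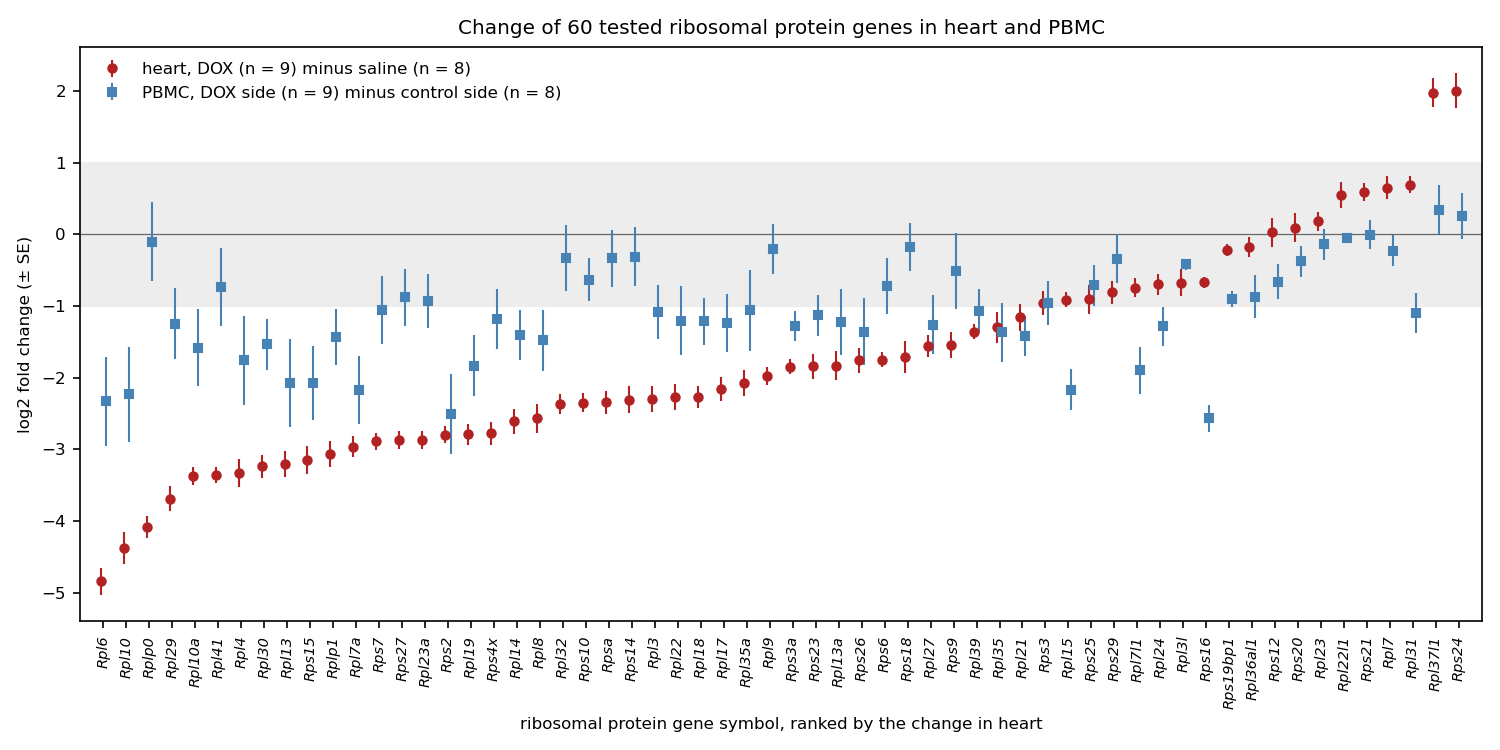
Log2 fold change (y axis, ± SE) of the 60 tested ribosomal protein genes, ranked along the x axis by the change in the heart; circles are the heart (DOX, n = 9, minus saline, n = 8), squares the PBMC (DOX side, n = 9, minus control side, n = 8), and the grey band is a change of less than 2-fold. The heart values run from -4.84 for Rpl6 to 2.01 for Rps24, while the PBMC values stay between -2.57 and 0.35.

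The largest falls were in genes of the large subunit. Rpl6, a protein of the large subunit surface, was at 5.86, 6.44 and 6.93 (lowest, median and highest array) in the saline hearts and at 0.69, 1.77 and 1.99 in the DOX hearts. The groups were separated by more than 3 log2 units of empty range, and the fall was 4.84 ± 0.191 on the log2 scale (SE, adjusted p = 3.75e-14), or 28.7-fold. Rpl10, which sits near the peptidyl transferase centre and joins the large subunit late in its assembly, was at 4.93, 5.72 and 6.30 in saline and at 0.49 to 2.001 in DOX, with a median of 1.16. It fell 20.8-fold (log2 fold change -4.38 ± 0.221, adjusted p = 1.05e-12), again with no overlap.

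Rplp0, the scaffold of the stalk that recruits translation factors and a common reference gene for RT-qPCR, was among the brightest members. It was at 7.77, 7.83 and 8.09 in saline and at 3.10, 3.69 and 4.46 in DOX, a 17-fold fall (log2 fold change -4.08 ± 0.156, adjusted p = 2.64e-14). Its partner in the stalk, Rplp1, fell 8.38-fold, from a saline mean of 4.15 ± 0.295 (SD, n = 8) to 1.08 ± 0.476 (SD, n = 9). The other stalk proteins, Rplp2 and Rpl12, were not tested because their mean over all arrays did not reach the study's threshold for expression. Rpl29 and Rpl10a followed with log2 fold changes of -3.69 ± 0.180 and -3.37 ± 0.126.

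Rps24 and Rpl37l1 rose in the heart. Rps24, a small subunit protein that is mutated in some patients with Diamond-Blackfan anaemia, was at 3.44, 3.76 and 4.05 in the DOX hearts. In the saline hearts its values fell into 2 clusters, at 2.46, 2.64 and 2.89 on arrays 8, 5 and 1 and at 1.16 to 1.31 on the other 5. All DOX arrays lay above both clusters, and the rise was 4.03-fold (log2 fold change 2.01 ± 0.243, adjusted p = 2.98e-07). Rpl37l1, a gene named for its likeness to Rpl37, was at 0.21, 0.37 and 0.72 in saline, where 6 of the 8 arrays were above background, and at 1.20, 2.43 and 3.10 in DOX. It rose 3.95-fold (log2 fold change 1.98 ± 0.199, adjusted p = 2.18e-08).

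A further group of genes had higher means on the DOX hearts by less than 2-fold. Rpl31, an exit tunnel protein, was at 0.91 ± 0.196 (SD, n = 8) in saline and at 1.60 ± 0.293 (SD, n = 9) in DOX (log2 fold change 0.69 ± 0.118, adjusted p = 2.45e-05). Rpl7 and Rps21 had log2 fold changes of 0.65 ± 0.158 and 0.60 ± 0.127, with adjusted p-values of 0.00088 and 0.000263. For these genes the highest saline array overlapped the lowest DOX array. Rps21 differs from the others in that it was clearly expressed, at 3.29 to 3.78 in all saline hearts. None of these 3 genes passed the 2-fold rule, while every one of them lay in the top 3 percent of all genes, at percentiles 97.8, 97.7 and 97.5.

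**Figure D2:**
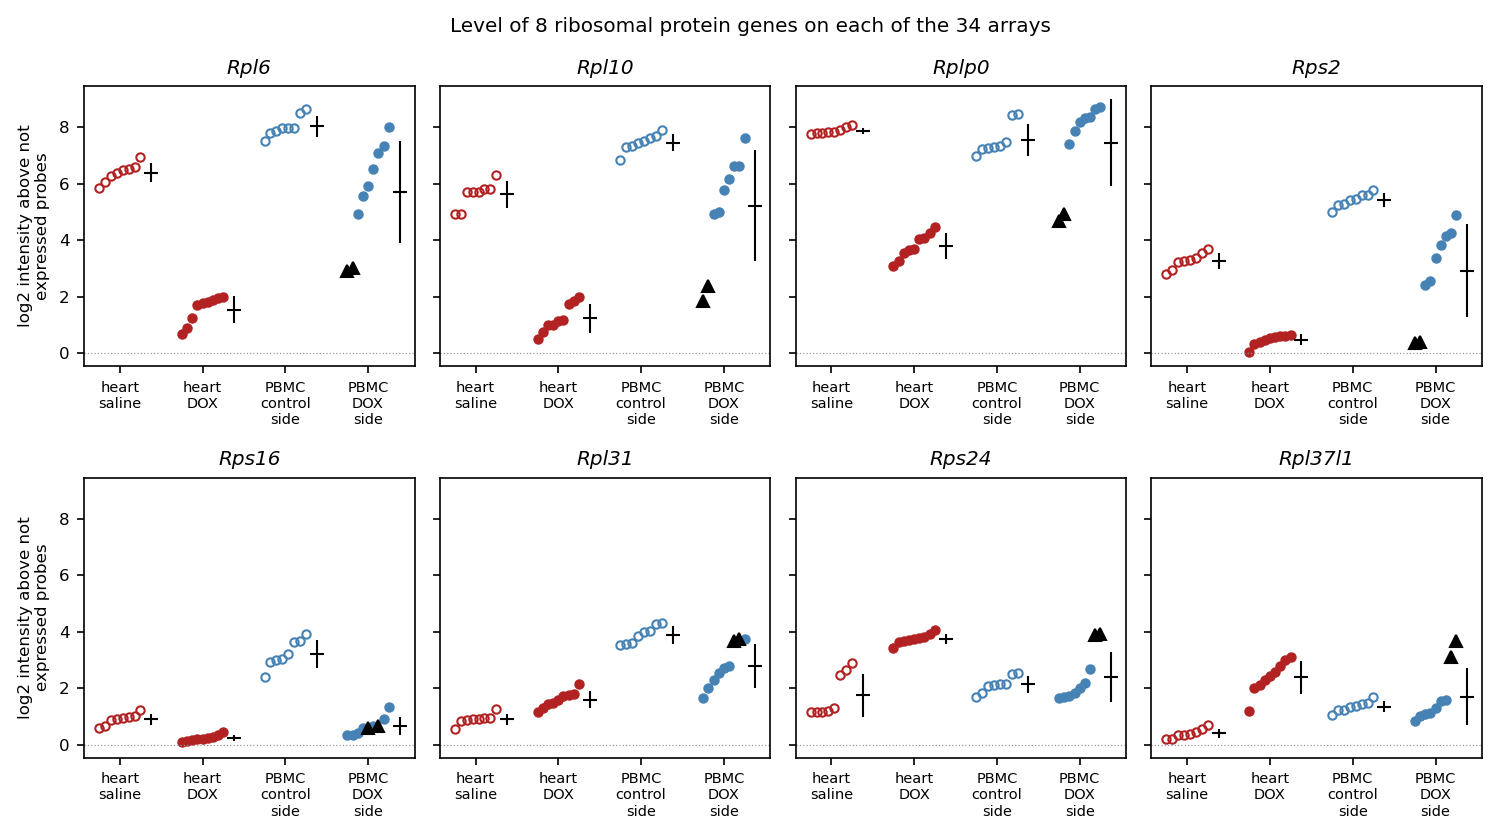
Log2 intensity above the not expressed probes (y axis) of 8 ribosomal protein genes on each array, by group along the x axis; open symbols are controls, filled symbols DOX, triangles the PBMC arrays titled saline 6 and DOX 1, and bars the mean ± SD. Rpl6, Rpl10 and Rplp0 lie far lower in the DOX hearts and on the 2 triangles, while Rps24 and Rpl37l1 lie higher on both.

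The size of the fall went with the level in the saline hearts. Across the 60 genes the correlation of the saline level with the log2 fold change was -0.76 (Pearson) and -0.70 (Spearman), and across all 6760 genes it was -0.80 and -0.86; this is a description across genes, which are not independent, and both measures share the saline arrays. All 22 members with a saline mean above 6 fell, by 1.71 to 4.84 on the log2 scale, and their median of -2.69 stood beside -2.79 for the 175 genes of that level, of which 173 fell. Among members with a saline mean above 4, the median was -2.35 (n = 43), and among all genes of that level -2.55 (n = 798). Of the 11 members with a saline mean up to 2, 0 fell and 2 rose (Rps24 and Rpl37l1), with a median of 0.18. Of all 4073 genes of that level 857 fell and 87 rose, with a median of -0.45.

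**Figure D3:**
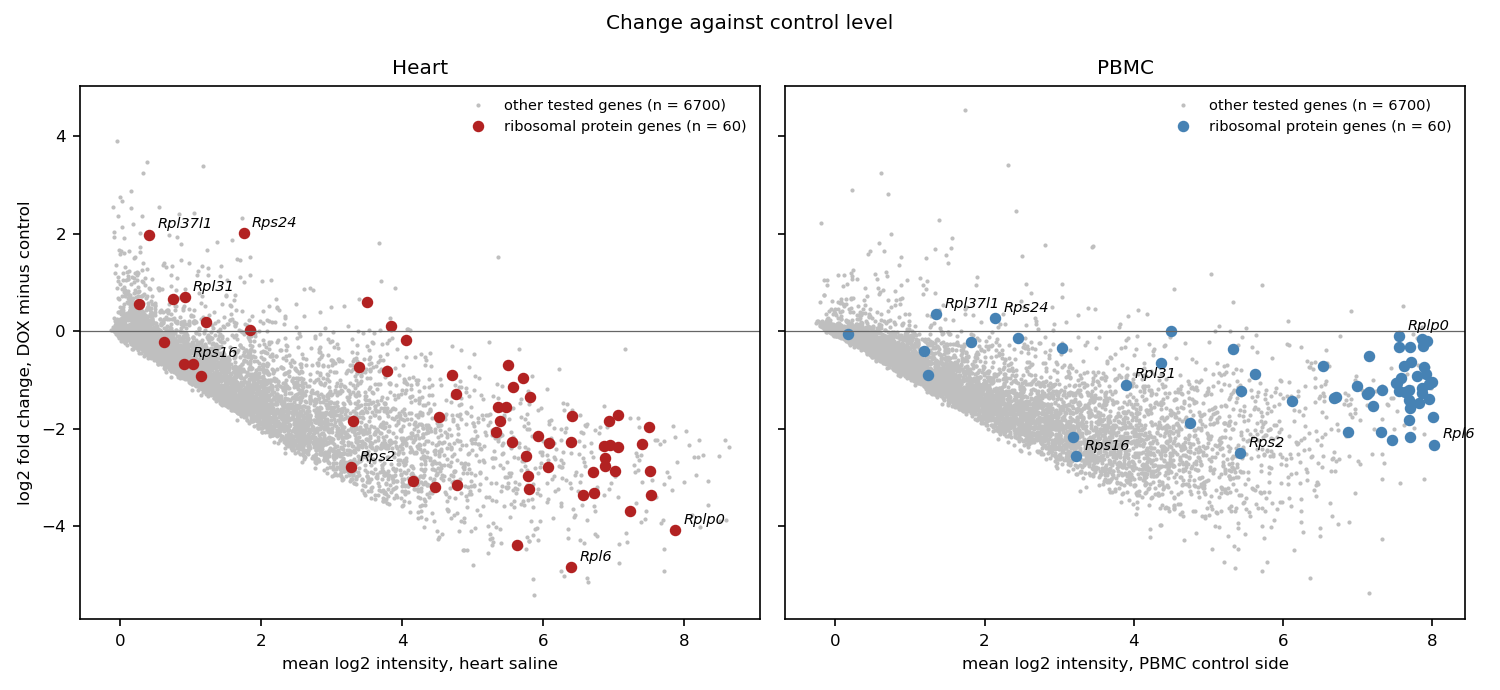
Log2 fold change (y axis) against the mean log2 intensity of the controls (x axis) in the heart (left) and the PBMC (right); grey points are the other tested genes and the coloured points are the 60 ribosomal protein genes. In the heart the ribosomal protein genes spread over the cloud of all genes, and in the PBMC 42 of the 60 lie above a control level of 6, where their median is -1.21 beside -1.57 for all genes of that level.

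By place in the ribosome, the 37 tested large subunit members had a median of -2.27 in the heart (27 fell, 1 rose) and the 22 small subunit members -1.75 (14 fell, 1 rose), against 48.2% of all genes that fell and 1.36% that rose. Of the members lining the exit tunnel 7 of 8 fell, Rpl4 most with -3.33 ± 0.199, and Rpl31 was the exception. All 3 members around the peptidyl transferase centre fell (Rpl3 -2.30, Rpl8 -2.56 and Rpl10 -4.38). At the mRNA entry site and decoding side of the small subunit, Rps2 (-2.79), Rps15 (-3.15) and Rps23 (-1.84) fell and Rps3 had a log2 fold change of -0.96. Rps6, the small subunit protein that the S6 kinases phosphorylate, fell by 1.75 ± 0.104, and Rpsa, also known as the laminin receptor, by 2.35 ± 0.156.

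Among the genes mutated in Diamond-Blackfan anaemia, a red cell failure caused by the loss of 1 copy of a ribosomal protein gene, 9 of 12 on the array were tested, 5 fell and Rps24 rose, a share of falls near the 48.2% of all genes. Of the remainder, Rps29 was at 3.55 to 3.92 in saline and at 2.02 to 3.34 in DOX with no overlap, a log2 fold change of -0.81 ± 0.157. Rpl5 and Rpl11, which with the 5S rRNA bind MDM2 and stabilise p53 when ribosome assembly fails, and Rps19 were not tested, as their probes were above background on none of the 34 arrays. With Rpl12, Rpl34, Rpl36a and Rplp2 these make up the 7 untested members. Of these, Rplp2 exceeded background on 5 of 9 DOX hearts and on 0 of 8 saline hearts.

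Of 4 further genes that encode a variant of a ribosomal protein (Rpl3l, Rpl22l1, Rpl7l1 and Rps4x), 1 fell in the heart; Rpl37l1, described above, and Rpl36al1, at -0.18, also bear such names. Rpl3l, the form of Rpl3 found in heart and skeletal muscle, was at 0.47 to 0.75 on 5 saline hearts and at 1.45, 1.73 and 1.95 on arrays 8, 5 and 1, and its DOX values were 0.17, 0.34 and 0.56 (log2 fold change -0.67 ± 0.186, adjusted p = 0.00253). The same probe had a mean of 1.03 in the saline hearts and of 1.19 on the PBMC control side, above background on all 8 arrays of each. Whether it measures the muscle form alone was not tested. The 3 saline arrays with high Rpl3l were the same that had high Rps24, and these were the only 2 of the 60 members for which those 3 arrays lay above the other 5; among all genes 2.69% showed this order. Rpl22l1 had a mean of 0.26 in saline and of 0.81 in DOX (log2 fold change 0.55 ± 0.184, adjusted p = 0.00992), and 1 of 8 saline arrays but 7 of 9 DOX arrays were above background. Rpl7l1, a paralog of Rpl7 that acts in the nucleolus, had a log2 fold change of -0.74 ± 0.133. Rps4x, the X-linked form of Rps4 and the abundant one, fell by 2.78 ± 0.157.

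Genes that share the TOP motif or serve the ribosome were listed beside these. Of 15 tested mRNAs outside the ribosomal protein symbols that carry a TOP motif, 13 fell in the heart, with a median of -2.96. Eef2, the elongation factor that moves the ribosome along the mRNA, fell by 4.29, Rack1, a small subunit protein without an Rps symbol, by 4.07 and Tpt1, a translationally controlled protein, by 3.77. Of 34 tested ribosome biogenesis genes 18 fell (median -1.08), with Fbl, the rRNA methyltransferase fibrillarin, at -2.72, and Ncl, nucleolin, had a log2 fold change of -0.03. Of 6 tested genes that control TOP mRNAs 4 fell, among them Mtor (-1.66) and the translation repressor Eif4ebp1 (-2.66). Each of these counts stands against 48.2% of all genes. The TOP mRNAs were bright, with an average of 4.59 to 5.32 on the saline hearts. Of all genes with a saline mean above 4, 762 of 798 fell (median -2.55).

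In the heart markers of cell types changed as well, in both directions. The mean level over 9 leukocyte markers was 0.20 to 0.46 in saline (6 of 9 above background) and -0.03 to 0.07 in DOX (1 of 9), that of 6 fibroblast markers 3.13 to 4.84 and 0.71 to 2.06, and that of 9 cardiomyocyte markers 5.35 to 6.08 and 3.03 to 4.25. By the 2-fold rule 1 of 9 leukocyte, 5 of 6 fibroblast and 6 of 9 cardiomyocyte markers fell, and 1 cardiomyocyte marker rose. Of 4 tested neutrophil markers 2 rose and 0 fell. Falls were also found for 2 of 3 endothelium, 2 of 4 platelet and 1 of 4 red cell markers. Among all genes 48.2% fell and 1.36% rose. The part of a change in cell types in the ribosomal protein values was not tested.

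In PBMC the same comparison was made with the DOX side against the control side. Ribosomal protein genes fell in about the proportion of all genes: 32 of 60 fell more than 2-fold and 0 rose, against 54.4% and 0.473% of all genes (limma, adjusted p under 0.05). An unadjusted p under 0.05 was found for 42 of the 60 members and for 5479 of all 6760 genes. The median log2 fold change of the members was -1.09, beside -1.12 for all genes. Most members were bright in PBMC, and at a control side mean above 6 their median was -1.21, with 26 of 42 that fell, beside -1.57 and 161 of 209 for all genes of that level. At a mean of 4 to 6 the median was -0.87 for 7 members, of which 3 fell, and -2.36 for all 906 genes, of which 838 fell. In only 9 of the 60 did the groups not overlap, with the DOX side lower, against 38.4% of all genes. The part of the upper end of the scale in this, near which the control side values of these genes lie, was not tested.

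The largest fall in PBMC was that of Rps16, a small subunit protein whose tail reaches the tRNA at the decoding centre. Rps16 was at 2.41, 3.12 and 3.93 on the control side and at 0.36, 0.60 and 1.35 on the DOX side, with all arrays apart. The fall was 5.93-fold (log2 fold change -2.57 ± 0.193, adjusted p = 5.4e-09), whereas in the heart, at a saline mean of 0.91, the log2 fold change was -0.67 ± 0.0803. Rps2 was at 4.997 to 5.78 on the control side, with a median of 5.46, and at 0.35, 3.39 and 4.91 on the DOX side, a 5.67-fold fall (adjusted p = 0.000565). The groups did not overlap for Rps2 either, but the DOX side spread over more than 4 log2 units.

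Rpl6 and Rpl10, lowest in the heart, fell in PBMC as well. Rpl6 was at 7.52 to 8.65 on the control side and at 2.92, 5.91 and 8.01 on the DOX side (log2 fold change -2.33 ± 0.619, adjusted p = 0.00236), and the groups overlapped. Rpl15, a large subunit core protein, fell by 2.17 ± 0.286 and Rpl7l1 by 1.89 ± 0.330. Rplp0 had a control side range of 6.99 to 8.46 and a DOX side range of 4.70 to 8.71, and its log2 fold change was -0.10 ± 0.550 (adjusted p = 0.87). Neither Rps24 (0.26 ± 0.319) nor Rpl37l1 (0.35 ± 0.346) passed the test in PBMC, with adjusted p-values of 0.463 and 0.368.

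By place, 25 of 37 large subunit members fell in PBMC (median -1.23) and 7 of 22 small subunit members (median -0.72). Of the exit tunnel members 7 of 8 fell here too, but Rpl31 was among them (-1.10 ± 0.282) and Rpl23a was the one that did not pass (-0.93 ± 0.377). Of the 15 other TOP mRNAs 13 fell (median -2.29), of the 34 ribosome biogenesis genes 31 fell (median -1.996) and of the 6 genes of TOP mRNA control 4 fell, against the same 54.4% of all genes. The TOP mRNAs averaged 6.37 to 6.89 on the control side arrays. At a control side mean above 4, 999 of 1115 genes fell, and above 6, 161 of 209. Fbl fell by 2.17 and Ncl, which had a log2 fold change of -0.03 in the heart, by 2.70.

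Markers of cell types in the PBMC samples differed between the sides. The mean level over 9 leukocyte markers was 5.03 to 5.70 on the control side and 1.58 to 4.94 on the DOX side, where 8 of the 9 fell, and that of 7 neutrophil markers was 0.02 to 0.79 and 1.16 to 2.84, where 3 of the 4 tested rose. By label the directions were opposite, with 6 of the 9 leukocyte markers higher in DOX and 3 of the 4 neutrophil markers lower. Among all genes 54.4% fell and 0.473% rose on the DOX side, and by label 44.5% were higher in DOX and 0.769% lower. Platelet markers by the study's grouping were at 4.91 to 6.58 and 2.69 to 6.86, and red cell markers at 2.63 to 4.70 and 1.66 to 5.79. The part of these shifts in the ribosomal protein values was not tested.

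The 2 PBMC arrays that stand apart carried much of the PBMC result, and on them the ribosomal protein genes ranked much as in the DOX heart. Without saline 6 and DOX 1, 15 of 60 members fell in place of 32 and the median was -0.71 in place of -1.09, while 50.5% of all genes fell in place of 54.4%. Rps16 (-2.56), Rpl15 (-2.05), Rpl7l1 (-1.95), Rps2 (-1.78), Rpl6 (-1.55) and Rpl31 (-1.36) still fell without them. For Rpl10 the array titled saline 6 was at 2.40 and that titled DOX 1 at 1.84, whereas the other 7 of the DOX side ran from 4.94 to 7.64. For 41 of the 60 members both arrays lay below all of the other 7, against 30.4% of all genes, and for 4 both lay above (Rpl23, Rpl37l1, Rps24 and Rps29).

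The likeness to the heart can be read gene by gene. Each array of the DOX side was set against the mean of the control side, and the 60 differences were correlated with the log2 fold changes of the heart, which share no array with them. The correlation across genes was 0.87 for saline 6 (Spearman 0.83) and 0.85 for DOX 1 (Spearman 0.78). For saline 1 it was 0.51, and for the remaining 6 arrays it lay between -0.09 and 0.15. Over all 6760 genes the same correlations were 0.53 and 0.53 for the 2 arrays and 0.03 to 0.41 for the other 7. These are descriptions across genes, and the 9 arrays share the same control side mean. The 2 arrays were also the dimmest of the 9 for the members, with medians of 4.41 (saline 6) and 4.16 (DOX 1). On the other 7 the medians were 5.12 to 7.45. The heart change itself went with the saline level (-0.76 across members). The saline heart levels and the PBMC control side levels of the members correlated at 0.94. The part of the level in these correlations was not tested. Rps24 stood at 3.91 on saline 6 and at 3.88 on DOX 1, against 1.67 to 2.67 on the other 7, and Rpl37l1 at 3.69 and 3.12 against 0.83 to 1.58. Both genes that rose in the DOX heart were thus higher on these 2 arrays, which bear opposite labels, than on the other 7. Rps16 did not differ in this way and was at 0.60 and 0.68 on the 2 arrays and at 0.36 to 1.35 on the others.

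**Figure D4:**
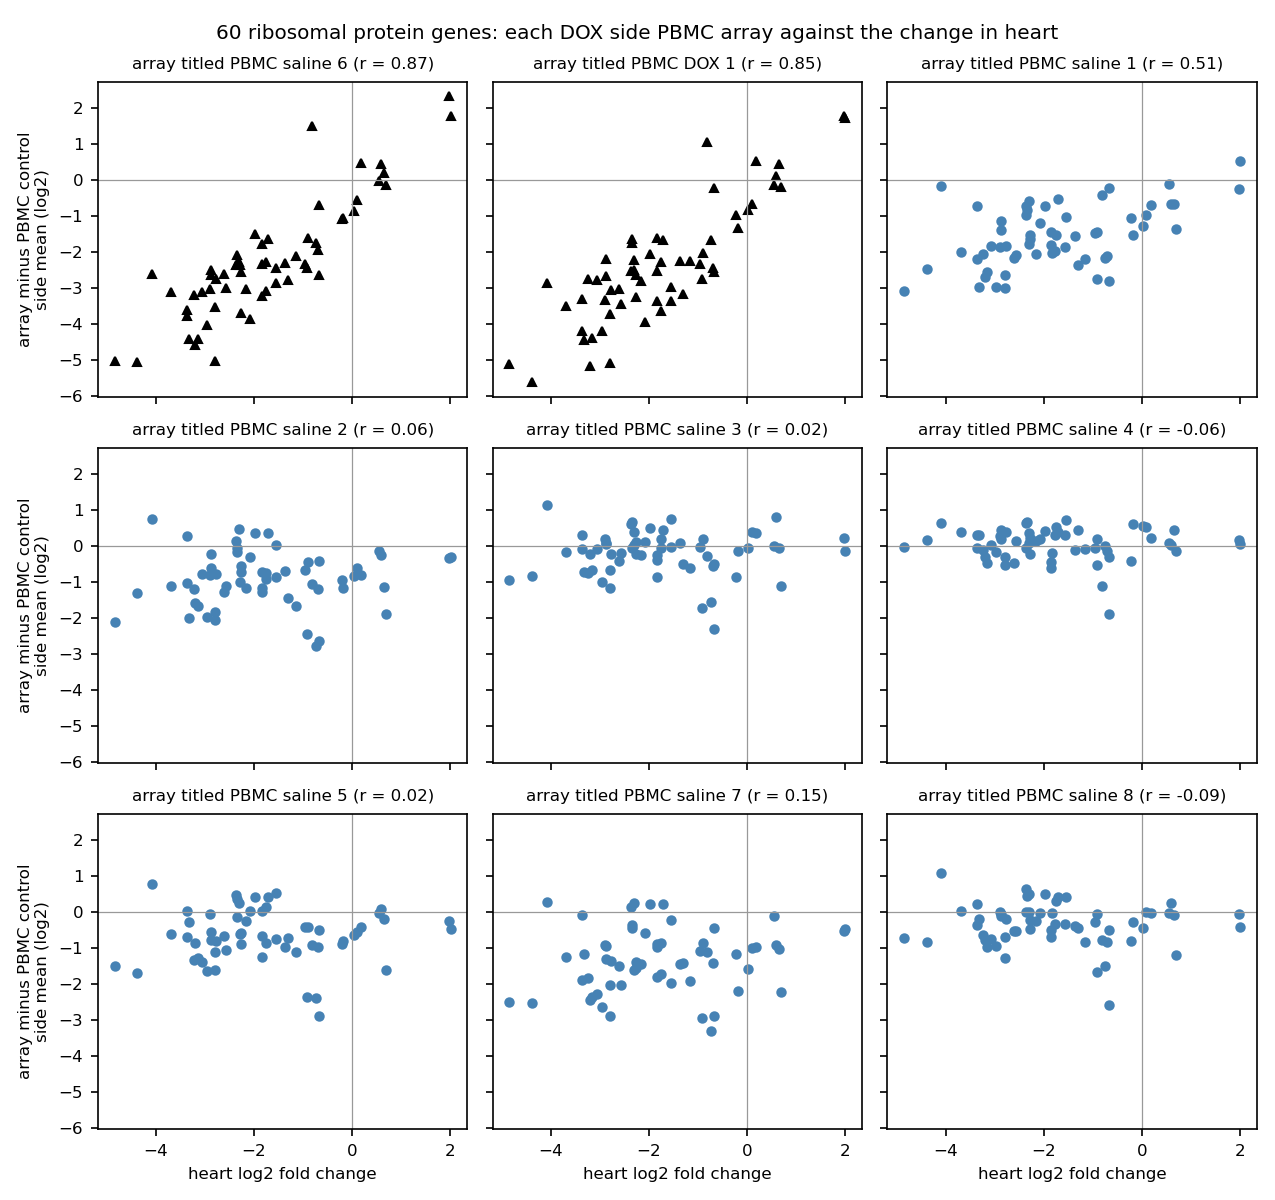
Difference of each of the 9 DOX side PBMC arrays from the control side mean (y axis, log2) against the heart log2 fold change (x axis) for the 60 ribosomal protein genes, with the Pearson correlation of each panel. The arrays titled saline 6 and DOX 1 (triangles) follow the heart with 0.87 and 0.85, and 6 of the others lie between -0.09 and 0.15.

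With the PBMC groups as labelled, DOX against saline, the picture turned over: 8 of 60 members rose more than 2-fold and 0 fell, against 44.5% and 0.769% of all genes. The 8 were Rps16 (2.29 ± 0.347), Rpl15 (1.79 ± 0.416), Rpl7l1 (1.74 ± 0.380), Rpl7a, Rpl31, Rpl30, Rpl21 and Rps3a. The median of the members was 0.63 and that of all genes 0.90. For 1 member every DOX array was above every saline array, and for 0 every one was below, against 3.34% and 0.0444% of all genes. Rpl3l was the 1, with a log2 fold change of 0.41 ± 0.0839. By label the array DOX 1 lies with the DOX arrays, and without it 25 members rose. The share of all genes without this array is not given here, so the 25 describes the members alone. Rps24 (0.12 ± 0.327) and Rpl37l1 (0.03 ± 0.359) did not pass under the labels either, nor did Rplp0 (-0.56 ± 0.538, adjusted p = 0.358).

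Of the 60 members, 27 fell in both the heart and the PBMC by the study's grouping, which was 45% of the members and 33.4% of all genes. A further 14 passed only in the heart (23.3%, against 14.7% of all genes) and 5 only in PBMC (Rpl15, Rpl24, Rpl31, Rpl7l1 and Rps16; 8.33% against 21.0%). Another 2 rose in the heart and passed in PBMC in neither direction (3.33% against 1.24%), and 12 passed in neither tissue (20% against 29.1%). The 14 were Rplp0, Rpl9, Rpl23a, Rpl32, Rpl35a, Rpl41, Rps6, Rps7, Rps9, Rps10, Rps14, Rps18, Rps27 and Rpsa, and in PBMC their log2 fold changes ran from -1.06 for Rpl35a to -0.10 for Rplp0. Rpl41, which encodes the shortest of the ribosomal proteins, fell by 3.36 in the heart and had -0.73 in PBMC, a difference of 2.63 ± 0.565 (adjusted p = 0.00017). A direct test of the difference between the tissues (limma, interaction of tissue and treatment, adjusted p under 0.05) placed the PBMC effect above the heart effect for 24 members and below it for 10, against 23.1% and 37.4% of all genes, and 60.5% in either direction. Under quantile normalization of all arrays the balance turned over, with 14 above and 17 below. That of all 6760 genes turned the other way, with 2234 above and 1537 below. By the study's methods the hearts and PBMC came from the same rats, and with the rat as a block 25 were above and 10 below. The largest difference was that of Rplp0, whose log2 fold change in PBMC was 3.98 ± 0.580 above that in the heart (adjusted p = 5.25e-07). Rps16 (-1.90 ± 0.212) and Rpl31 (-1.79 ± 0.310) had the lowest PBMC effects relative to the heart. In the DOX hearts Rps16 and Rpl15 each had a mean of 0.24, with 2 of 9 arrays above background. A larger fall of these genes in the heart could thus not be seen. Under quantile normalization the differences were -0.55 for Rps16, -1.02 for Rpl31 and -0.04 for Rpl15. For Rps2, which fell in both, the difference was 0.29 and did not pass (adjusted p = 0.683). With the labels as given, the PBMC effect was above the heart effect for 51 members and below it for 4, against 87.9% and 3.17% of all genes, and 91.1% in either direction.

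By the study's grouping, the controls alone showed that the same genes are bright in both tissues. The mean of the saline hearts and that of the PBMC control side correlated at 0.94 across the 60 members and at 0.52 across all 6760 genes, as a description. In 46 of the 60 members every control side PBMC array was above every saline heart, in 0 below, against 39.7% and 20.6% of all genes, and the median difference was 1.45 for the members and 0.37 for all genes. Rplp0 was one of the 14 that overlapped. These values hold for the study's grouping only, as the control side holds arrays titled DOX. The counts and the correlations were not made with the PBMC groups as labelled. By label single members went either way. The mean of Rpl6 was 6.05 in PBMC saline and 6.40 in heart saline, and that of Rpl31 was 2.69 and 0.91.

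All of these values are relative to the not expressed probes of the same array, and most genes were lower on the DOX hearts and on the PBMC DOX side. By label the PBMC went the other way, with a log2 fold change below 0 for 630 of 6760 genes. The scaling thus decides how many members fell or rose. When all arrays were brought to the same distribution (quantile normalization), 13 members fell in the heart and 14 rose, against 17.8% and 7.50% of all genes, and in PBMC 4 fell and 8 rose, against 8.70% and 4.04%. As labelled 3 fell and 1 rose in PBMC, against 4.33% and 5.62%. All 13 that fell in the heart were among the 41 of the first scaling, and Rps24 and Rpl37l1 were among the 14 that rose, Rpl6 with -3.32, Rpl10 with -2.91 and Rplp0 with -2.01 at one end and Rps24 with 3.74 and Rpl37l1 with 3.07 at the other. Rps21, with a log2 fold change of 0.60 under the first scaling, rose by 2.69, Rpl21, which fell by 1.15 under the first, rose by 1.15, and Rps6, which fell under the first, had 0.55. Under this scaling the correlation of the heart and PBMC changes was 0.77 across the members and 0.36 across all genes, in place of 0.53 and 0.35.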

How the data were processed

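Values were log2 intensities of 22523 probes on 34 arrays; the deposited intensities are on the log2 scale, had no background subtracted, and have a median of 0 on every array. The 34 columns of 2 further tables carry names that match no sample and were not used. RNA (10 ng per sample) was amplified and labelled for the BeadChips. Each gene took its probe with the highest mean; 13793 probes had 1 symbol and 8730 none. Per array, the median of the 13137 not expressed probes was subtracted, and 6760 genes with a mean over 0.1524 on the centred scale were tested, a value read from the expressed flags of the study's gene list. Of the 67 members, 66 were matched by gene ID in the RefSeq table, and 1 had more than 1 probe. Groups were compared with limma 3.58.1 (R 4.3.3; lmFit, eBayes, group means, Benjamini-Hochberg over 6760 genes), and a gene was called where the fold exceeded 2 with an adjusted p under 0.05; interactions needed only the latter. Background on an array was the 95th percentile of its not expressed probes. Members and gene lists were chosen with earlier results of these data known. Genes were named by a rule: the 5 lowest and 5 highest changes in each tissue, the paralogs, and Rplp0, Rplp1, Rplp2, Rpsa, Rpl5, Rpl11, Rps6, Rps27a and Rps19; for other lists, up to 3 called genes with the largest heart change. Rps27a was not analysed here, and Ncl and the members named beside a list or for their profile were chosen after their values were seen. The methods name 17 rats, from which both tissues were taken, and mention repeat arrays for 7 of them. Whether a column averages repeats is not given in the sources used here. The description of every PBMC array names the ventricle, against their other labels. The number of arrays limits the precision. The test was checked on simulated data with 200 of 6760 genes shifted: by 1.5 log2 units it recovered 100% in the heart, 85.5% in the PBMC by the study's grouping and 73% as labelled. False calls were 0, 4 and 4. The simulated noise was independent between genes, with no floor and no arrays that stand apart, so these shares need not hold for the data. Alternatives were quantile normalization, the values as deposited, other filters, the mean of all probes, array weights, a trended prior, leaving out arrays and a replicate block.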

Additional observations from a re-analysis of the deposited data

Results flagged for a closer look

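In 80 groups of arrays, 4 for each of 20 named members, 1 array lay outside its group by Dixon's criterion, where chance gives about 1 in 20: Rps4x on the DOX heart 6 was at 3.04, with the next array at 4.01.

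The change in PBMC by the study's grouping differed from that in the heart for 18 of the 20 named members (limma interaction, adjusted p from 2.88e-09 to 0.0339). Most of these were named for their large changes in 1 of the tissues, so the count is a description, and 60.5% of all genes passed the same test. The PBMC effect lay above the heart effect on the log2 scale by 3.98 for Rplp0, 2.51 for Rpl6, 2.44 for Rpl29, 2.15 for Rpl10, 2.01 for Rpsa, 1.79 for Rpl10a, 1.63 for Rplp1, 1.60 for Rps4x and 1.02 for Rps6. PBMC effects lower than the heart effects were found for Rps16 with a difference of -1.90, Rpl31 with -1.79, Rps24 with -1.75, Rpl37l1 with -1.63, Rpl15 with -1.26, Rpl7l1 with -1.15, Rpl7 with -0.88, Rps21 with -0.60 and Rpl22l1 with -0.60. Rps16 and Rpl15 were near background in the DOX hearts, which bounds their differences. The difference of Rps21 no longer passed without any 1 of 8 arrays, with values from -0.57 to -0.49, and that of Rps6 without PBMC saline 3, 5 or 8, with values from 0.90 to 0.92.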

How the results depend on the processing

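The scaling mattered most. Under quantile normalization 13 members fell and 14 rose in the heart (median -0.14), 4 fell and 8 rose in PBMC by the study's grouping (median -0.056), and 3 fell and 1 rose as labelled (median -0.039). The PBMC effect was then above the heart effect for 14 members and below it for 17 (median -0.020), and with the labels for 23 and 23 (median -0.14). Of all 6760 genes 2234 were above and 1537 below, and with the labels 3144 and 1496. Single genes turned over with it: Rps6 in the heart (0.55), Rpl31 in PBMC (0.81, and -0.40 as labelled), and against the heart Rps6 (-0.25), and as labelled Rpl3l (-0.43), Rpl7l1 (-0.73), Rpsa (-0.42) and Rps6 (-0.86). A filter at a mean over 1 left 57 members, with a heart median of -2.07 and 2 members below as labelled. Without PBMC saline 6 and DOX 1, 15 members fell (median -0.71), 15 rose as labelled, and 39 lay above the heart (median 1.43). By the study's grouping 50.5% of all genes fell then. With array weights 19 rose as labelled and 39 lay above the heart, and on the values as deposited 4 rose as labelled. Where no share of all genes is given for another setting or without an array, the count describes the members alone. A replicate block by the number in the titles gave 18 members that fell in PBMC, where Rpl29, Rpl10a and Rps4x no longer passed, but within a tissue a number is shared by different rats, and deviations of same-numbered saline and DOX arrays correlated at -0.14 to 0.15 in the heart and at -0.42 to 0.78 in PBMC. Between tissues the methods give the same rats, though not that the title numbers are theirs, and deviations of same-titled arrays correlated at -0.18 to 0.14. A block for the rat had a correlation of -0.06 and left 25 members above the heart and 10 below.

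Leaving out 1 array at a time gave 41 to 43 members that fell and 2 that rose in the heart (median -1.99 to -1.85), 25 to 37 that fell and 0 that rose in PBMC (median -1.22 to -0.91), and 4 to 25 that rose and 0 that fell as labelled (median 0.43 to 0.93). The PBMC effect was above the heart effect for 21 to 34 members and below for 9 to 13 (median 0.76 to 1.16), and as labelled for 49 to 53 and 3 to 4 (median 2.23 to 2.79). In PBMC Rpl29 no longer passed without saline 1 or 6 or DOX 1, 2 or 3 (-1.16 to -0.97), Rps4x without saline 6 or DOX 1 (-0.98 and -0.94) and Rpl31 without saline 2 or 7 (-0.997 and -0.955). The causes were not tested. Probes near the top of the scale in PBMC and near background in the heart limit what can be seen.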
